A study of Mus musculus with 18 samples.

Results

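The binding of JUND to DNA carrying 5-methylcytosine (5mC) was set against its binding to unmodified DNA on protein binding microarrays, using 4 of the 18 arrays of the series. The JUND 5mC group held 2 arrays and the JUND unmodified group held 2 arrays, taken by the protein and the DNA treatment in their labels. In this assay a protein is incubated with an array of DNA probes and the amount that stays on each probe is read as fluorescence. Both groups used the DNA-binding domain of mouse JUND with some flanking residues, fused to glutathione S-transferase and expressed in a cell-free system, with no partner protein named. The probes of the first group were made double-stranded with 5mC in place of cytosine, and those of the second with cytosine. Every C of the synthesized strand was therefore 5mC in the first group, while the printed strand held unmodified C in both, so the 5mC DNA was hemi-modified, at every C and not only in CpG. All arrays carried the same 40330 probes with 35 variable bases each. The other arrays held CREB1 and ATF1 on the same kinds of DNA, and the 3 proteins on 5-hydroxymethylcytosine.

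JUND belongs to the AP-1 family of basic leucine zipper (bZIP) proteins, which bind as dimers: the zippers join the partners and the basic regions read the major groove. In cells the partner is often a FOS protein, and JUND is known among the JUN proteins as one that can restrain growth. AP-1 dimers bind the heptamer TGACTCA, which reads TGAGTCA on the other strand, and also the cAMP response element (CRE), in which the half-sites TGAC and GTCA adjoin. C/EBP proteins, another bZIP family, bind the half-site GCAA. A TGAC half-site that runs through a CpG into GCA, the start of GCAA, is called the chimera here. Not every chimera 8-mer thus holds the whole GCAA, and TGACGCA is also a 1-base change of TGACTCA. Thymine and 5mC carry a methyl group on the same carbon of the ring, so sites with a C in place of a T of AP-1 were listed apart.

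These 8-mers carry the results, and are written as they read on the synthesized strand, 5′ to 3′, with capitals for the cytosines that were 5mC in the first group. The AP-1 heptamer comes with 1 or with 2 such cytosines, depending on the strand that was synthesized.
AP-1 with 1 C: tgagtCat
AP-1 with 2 C: tgaCtCat
CRE palindrome: tgaCgtCa
Chimera: tgaCgCaa
Chimera on the other strand, with another flank: tgCgtCat
AP-1 with its first T as C: CgagtCat
C/EBP half-site after C: CtaCgCaa

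A site is read from all the probes that hold it. For the AP-1 8-mers, the chimera and the C/EBP 8-mer, the probe with the highest mean log2 signal over the 4 arrays is shown as its synthesized strand reads, with the site in capitals.
AP-1 with 1 C, probe: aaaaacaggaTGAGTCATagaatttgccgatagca
AP-1 with 2 C, probe: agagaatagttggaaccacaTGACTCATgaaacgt
Chimera, probe: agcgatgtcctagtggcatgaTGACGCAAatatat
C/EBP half-site after C, probe: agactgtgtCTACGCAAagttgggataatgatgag
The probe with 1 C in its AP-1 site read 3.21 and 1.39 times the array median on the 5mC arrays, against 23.7 and 18.8 times on the unmodified arrays. The chimera probe read 6.69 and 7.45 times the median with 5mC, against 11.2 and 4.37 times without it. The AP-1 probe with 2 C read 5.92 and 4.47 times the median with 5mC, against 22.7 and 12.0 times without it. The C/EBP probe read 3.77 and 3.39 times with 5mC, against 5.49 and 1.33 times without it. Both AP-1 probes thus separated the groups, and the chimera and C/EBP probes did not. Signals given for an 8-mer from here on are medians over its probes.

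The 4 arrays differed in brightness, which bears on every value. The median probe signal was 8014 and 7610 on 5mC arrays 1 and 2, against 1961 and 713 on unmodified arrays 1 and 2. Signal over local background was 14.0 and 4.44 with 5mC, against 2.98 and 5.36 without it, and saturated probes numbered 10 and 17, against 1 and 0. Each result is therefore given on up to 3 scales: the deposited z-score of the 8-mer with its rank on the array, the raw signal as a multiple of the array median, and a log2 signal corrected for background by normexp and set relative to the array median. The z-scores had an SD of 1.15 and 1.14 on the 5mC arrays, against 1.77 and 1.07 on the unmodified arrays, over the 64454 8-mers held by 10 or more probes. Normexp removed 65.4% and 58.3% of the median signal on the 5mC arrays, against 76.4% and 86.4% on the unmodified arrays, so differences in its log2 signal are wider than those of the raw signal. Nothing in the labels tells whether a group's arrays used different batches of protein. The p-values then cover only array-to-array spread, which may be technical, and an exact permutation test of 2 arrays against 2 can give no two-sided p below 0.333.

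AP-1 sites led the unmodified arrays and did not lead the 5mC arrays. Among the 100 8-mers with the highest z-scores, 13 and 2 held TGAC or GTCA on the 5mC arrays, against 83 and 57 on the unmodified arrays, beside 3.95% of all 8-mers. The 16 8-mers with an AP-1 heptamer had a median rank of 7526 and 18781 with 5mC, against 17 and 34.5 without it. Their z-scores ran from 0.0305 to 6.59 and from -1.46 to 3.18 on the 5mC arrays, against 9.54 to 106 and 0.797 to 34.5 on the unmodified arrays. A z-score of 4 or more was reached by 3 and 0 of the 16 with 5mC, against 16 and 9 without it. In raw signal the median of the 16 was 1.25 and 1.07 times the array median, against 4.08 and 1.57 times. The z-scores of 13 of the 16 were lower on both 5mC arrays than on both unmodified arrays, a pattern of 22.2% of all 8-mers.

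**Figure D1:**
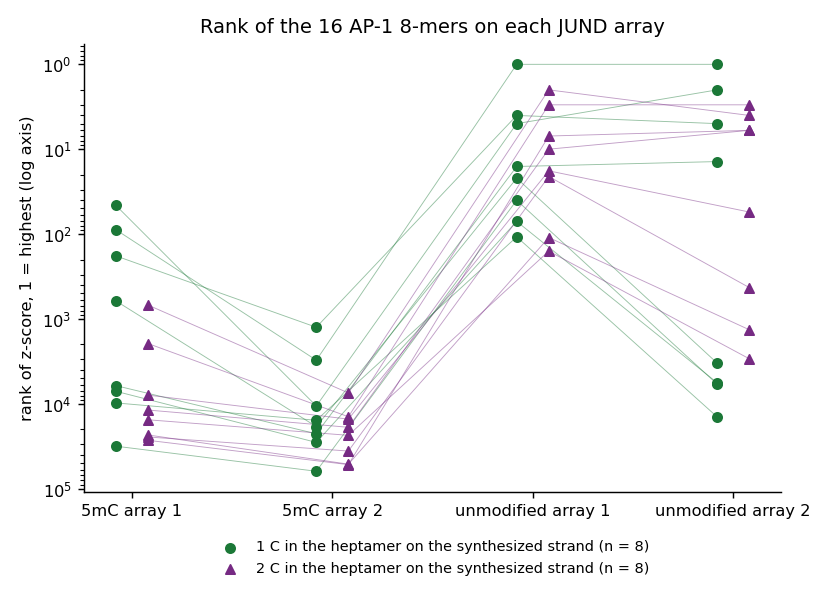
Rank of the z-score of the 16 AP-1 8-mers (vertical log axis, 1 is the highest of the 8-mers on that array) on the 2 JUND 5mC arrays and the 2 JUND unmodified arrays. Points are 8-mers, with circles for 1 C and triangles for 2 C in the heptamer, and lines join an 8-mer across arrays; median ranks are 7526 and 18781 with 5mC, against 17 and 34.5 without it.

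The strongest 8-mer on unmodified DNA was tgagtCat. Its z-scores were 5.89 and 2.32 on the 5mC arrays, against 106 and 34.5 on the unmodified arrays, where it ranked 1 on both. Its raw signal was 1.80 and 1.36 times the array median with 5mC, against 10.4 and 3.41 times without it. The groups did not overlap on either scale, but the log2 difference of -3.06 ± 1.33 (SE) missed the threshold in limma's fit (adjusted p = 0.202).

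With a second C in the heptamer, tgaCtCat had z-scores of 3.79 and 1.52 on the 5mC arrays, against 98.6 and 18.4 on the unmodified arrays. Its raw signal was 1.36 and 1.30 times the median, against 9.35 and 2.94 times, and its log2 signal fell by 3.45 (SE 0.941, limma adjusted p = 0.0484). The largest fall among the 8-mers that passed was at gtgaCtCa, which also holds 2 C. It had z-scores of 0.228 and -0.756 on the 5mC arrays, against 68.7 and 15.0 on the unmodified arrays, and raw signals of 1.04 and 0.929 times the median, against 6.71 and 2.17 times. It was thus at the level of a typical 8-mer on 5mC DNA and among the top 7 on unmodified DNA (log2 change -3.73 ± 0.568, limma adjusted p = 0.00455).

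Across all 64460 8-mers, limma's fit of the log2 signal called 1055 (1.64%), 638 higher (0.990%) and 417 lower (0.647%) with 5mC. Of the 16 AP-1 8-mers 8 fell, 6 of the 8 with 2 C and 2 of the 8 with 1 C, and 15 had an unadjusted p under 0.05. By orientation, 8 with 2 C and 7 with 1 C had such a p, with median changes of -2.38 and -2.16. The orientations thus differed more in calls than in the size of the change. The change was negative in all 16, with a median of -2.16 beside -0.01 over all 8-mers, and 13 showed no overlap between groups, beside 25.3% of all 8-mers. The number called was 0 with the raw signal and with subtracted background floored at 50, in place of normexp, where no 8-mer of any kind was called and 14539 and 12830 had an unadjusted p under 0.05. Leaving out 1 array gave 2 AP-1 calls without 5mC array 1, 0 without 5mC array 2, 8 without unmodified array 1 and 16 without unmodified array 2. In the z-scores limma called 2 8-mers in all (0.00310%), both higher, and none of the AP-1 list, of which 7 had an unadjusted p under 0.05. For the strongest AP-1 8-mers this fit cannot decide, as its SEs were wider than the SDs within the groups. For tgagtCat the change was -66.3 with an SE of 212, beside SDs of 2.52 with 5mC and 50.8 without it. For tgaCtCat the SE was 118, beside SDs of 1.61 and 56.7. The SE was smaller at weaker members, such as CtgagtCa with 3.54, beside SDs of 1.05 and 13.0.

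The standing of AP-1 among the 8-mers of its array separated the groups. The signal in scanner units above the array median, which also depends on array brightness, mostly overlapped. On that scale 2 of the 16 8-mers were lower on both 5mC arrays than on both unmodified arrays. For tgagtCat the signal above the array median was 6382 and 2740 units on the 5mC arrays, against 18423 and 1719 units on the unmodified arrays. For tgaCtCat it was 2906 and 2277 units with 5mC, against 16368 and 1385 units without it. Both 5mC arrays lay between the 2 unmodified arrays. The median of the 16 AP-1 8-mers was 2043 and 564 units, against 6037 and 408 units.

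The base beside the heptamer went with the signal on unmodified DNA, where flanks are given with their mirror image on the other strand. With A before or T after, raw signals were 1.36 to 1.80 and 1.16 to 1.36 times the array median on the 5mC arrays, against 7.57 to 10.4 and 2.53 to 3.41 times on the unmodified arrays. With G before or C after they were 1.04 to 1.76 and 0.929 to 1.48 times with 5mC, against 4.17 to 6.71 and 1.81 to 2.23 times without it. The next class had C before or G after, with 1.01 to 1.62 and 0.804 to 1.08 times, against 2.99 to 3.99 and 1.11 to 1.34 times. With T before or A after the ranges were 1.03 to 1.29 and 0.865 to 1.20 times, against 1.94 to 2.37 and 1.07 to 1.28 times. On unmodified array 1 the 4 classes did not overlap, and on unmodified array 2 only the last 2 overlapped. On 5mC array 1 every pair of classes overlapped except the first and the last, and on 5mC array 2 every pair except the first and the third. Each class holds 4 8-mers of the same arrays, and no test was made of the flanks.

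The 2 orientations of AP-1 changed order between the groups in their list medians, and less evenly in matched pairs. The 8 8-mers with TGAGTCA (1 C) had a median z-score of 2.81 and 0.714 on the 5mC arrays, against 33.7 and 5.89 on the unmodified arrays. The 8 with TGACTCA (2 C) had 0.942 and 0.490 with 5mC, against 45.4 and 10.1 without it. By these medians the 2-C orientation was the lower one with 5mC and the higher one without it. In the 8 strand pairs, which match the flanks, the 2-C member was lower in 7 and 7 on the 5mC arrays, against 5 and 2 on the unmodified arrays. Read as 7-mers within each array, TGACTCA minus TGAGTCA was -0.59 and -0.49 in log2 signal on the 5mC arrays, against 0.23 and 0.75 on the unmodified arrays. With the raw signal it was -0.29 and -0.18, against 0.17 and 0.29. The difference is taken between 2 orientations of the same array, and its sign was that of its group on every array and under the 3 background settings.

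Single pairs varied more. Of 31564 8-mers set against their reverse complement, 2526 changed their strand difference (8.00%), 1942 toward the 8-mer that comes first in the alphabet (6.15%) and 584 the other way (1.85%). Under quantile normalization these were 238 and 259 of 497. Of the 8 AP-1 pairs 1 passed: gtgaCtCa minus tgagtCaC was -0.59 and -0.71 with 5mC, against 0.83 and 0.49 without it (change -1.30 ± 0.365, limma adjusted p = 0.0209). The pair of atgaCtCa and tgagtCat differed by -0.57 and -0.48, against -0.41 and -0.59, a change of -0.02 ± 0.374 (adjusted p = 0.979).

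A scan of the heptamer and its 1-base changes covered 40 7-mers, among 16196 of which 1022 changed (6.31%), 587 higher (3.62%) and 435 lower (2.69%). The intact TGACTCA read 0.37 and -0.09 in log2 signal on the 5mC arrays, against 3.64 and 1.72 on the unmodified arrays, where it ranked 2 and 3 of all 7-mers. It fell by 2.54 (SE 0.641, limma adjusted p = 0.00831). TGAGTCA read 0.95 and 0.40 with 5mC, against 3.41 and 0.96 without it, and missed the threshold (adjusted p = 0.150). Of the 38 changed 7-mers 9 fell and none rose, limma giving none an unadjusted p under 0.05 for a rise. With TGACTCA itself these are 10 calls. Of them 2 stayed past the threshold with the raw signal and 2 with subtracted background floored at 50, in place of normexp.

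On unmodified DNA each of the 21 changes of TGACTCA read lower than the intact site on both arrays, by a median of -3.05 and -1.62. On the 5mC arrays the median difference was -0.20 and 0.18, and 5 and 14 of the 21 read higher than the intact site. The changes of TGAGTCA differed from it by a median of -0.78 and -0.22 with 5mC, against -2.72 and -0.82 without it, and 0 and 4 of 21 read higher, against 1 and 1. TGACTCA thus stood apart from its neighbours on unmodified DNA and lay among them on 5mC DNA.

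**Figure D2:**
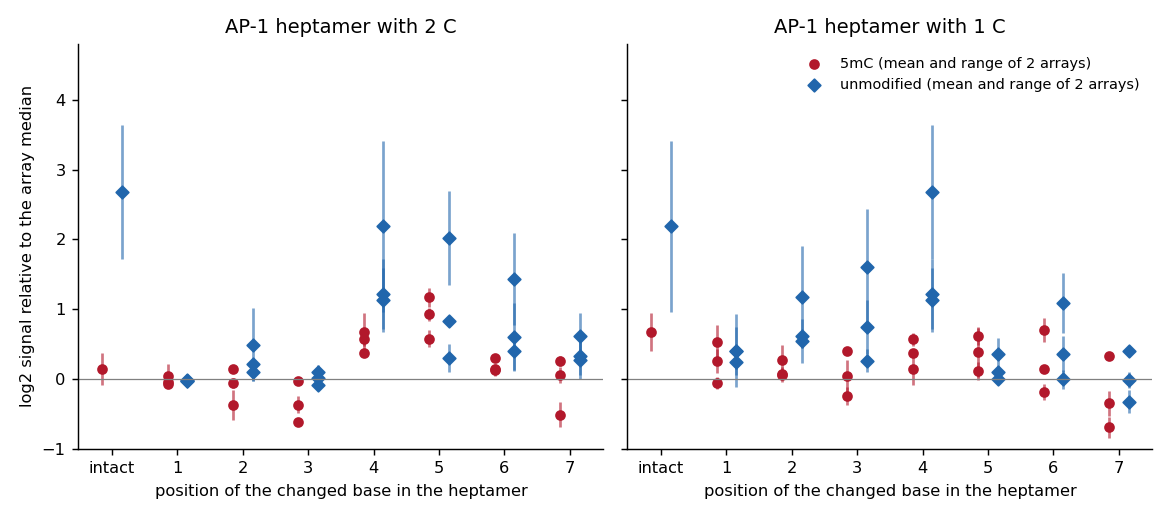
Log2 signal relative to the array median for the AP-1 heptamer with 2 C (left) or 1 C (right) on the synthesized strand and for its 1-base changes, by position from the 5′ end. Points are means and lines the range of the 2 arrays, with circles for JUND on 5mC and diamonds for JUND on unmodified DNA; the intact 2-C heptamer reads 0.37 and -0.09 with 5mC, against 3.64 and 1.72 without it.

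The 9 that fell were the changes G2T, A3T, C4A, C6A and A7T of TGACTCA and G2T, A3C, A3G and A3T of TGAGTCA, with positions counted from 1 at the 5′ end. C6A of TGACTCA, to TGACTAA, read 0.10 and 0.17 on the 5mC arrays, against 2.09 and 0.77 on the unmodified arrays, and fell by 1.29 (SE 0.265, limma adjusted p = 0.00102). G2T of TGAGTCA, to TTAGTCA, which is the same site on the other strand, read 0.06 and 0.04, against 1.91 and 0.45 (fell by 1.13, SE 0.228, adjusted p = 0.000894). These sites keep 1 TGAC or GTCA half-site. The 8-mer atgaCtaa had the highest mean z-score over the 4 arrays among CpG-free TGAC 8-mers outside AP-1. It had z-scores of 0.631 and 0.0562 with 5mC, against 39.8 and 6.96 without it, and its log2 signal fell by 2.60 (SE 0.505, adjusted p = 0.0118). At the centre C4A, to TGAATCA, read 0.35 and 0.39 with 5mC, against 1.71 and 0.72 without it (fell by 0.85, SE 0.264, adjusted p = 0.0342). Some of the 9 had little signal on unmodified DNA and fell below the array median with 5mC. A3T of TGACTCA read -0.56 and -0.67 with 5mC, against 0.01 and 0.01 without it. A7T of TGACTCA read -0.68 and -0.34, against 0.54 and -0.01, and A3G of TGAGTCA read -0.12 and -0.37, against 0.43 and 0.10.

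CpG-free half-sites are read beside the 0.647% of all 8-mers that fell. Of 842 8-mers with TGAC outside AP-1, 28 fell and none rose (17 had an unadjusted p under 0.05 for a rise), with a median change of -0.25. Of 849 with GTCA, 43 fell and 2 rose, with a median change of -0.24. Their median z-scores were 0.452 and 0.261 for TGAC on the 5mC arrays, against 1.54 and 0.727 on the unmodified arrays.

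Sites with C in place of the first T of AP-1 were weaker than AP-1 on unmodified DNA. The median z-scores of their 4 lists of 8 ran from 0.0541 to 3.17 on unmodified array 1 and from -0.578 to 1.28 on unmodified array 2. None of the 8-mers in these lists was called (limma, 1 with an unadjusted p under 0.05 for a rise and 4 for a fall). CGAGTCA, the change T1C of TGAGTCA, read 0.78 and 0.28 in log2 signal on the 5mC arrays, against 0.93 and -0.12 on the unmodified arrays (difference 0.13 ± 0.199, limma adjusted p = 0.750). Within an array CGAGTCA minus TGAGTCA was -0.17 and -0.12 with 5mC, against -2.48 and -1.08 without it, and with the raw signal -0.11 and 0.02, against -1.59 and -0.41. The C and T versions were thus close on the 5mC arrays and far apart on the unmodified arrays.

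The highest mean z-score of these 8-mers was that of CgagtCat, with z-scores of 4.93 and 2.80 on the 5mC arrays, against 13.7 and 1.76 on the unmodified arrays. Its raw signal was 1.81 and 1.46 times the median with 5mC, against 2.31 and 1.12 times without it, and the groups overlapped (log2 difference -0.02 ± 0.476, adjusted p = 0.987). From the 2-C orientation, CGACTCA minus TGACTCA was -0.33 and -0.04 with 5mC, against -3.63 and -1.80 without it. In this orientation the other changes of this T were alike, with -0.38 and -0.03 for T1G, against -3.69 and -1.72. For T1A they were -0.48 and 0.30, against -3.57 and -1.82. In the 1-C orientation T1G minus TGAGTCA was -0.86 and 0.03 with 5mC, against -2.67 and -0.90 without it. For T1A it was -1.09 and -0.37, against -3.07 and -0.82. On 5mC array 1 both lay further below the intact site than T1C, and on 5mC array 2 only T1A did. Where C replaced the second T, 1 of the 16 8-mers with TGACCCA or TGAGCCA rose, beside 0.990% of all 8-mers. It was tgagCCag, with z-scores of 4.95 and 5.02 with 5mC, against 0.925 and -0.583 without it (log2 change 1.38 ± 0.307, adjusted p = 0.0193).

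The chimera kept a high standing in one orientation. For the 8 8-mers with TGACGCA the median rank was 638 and 1223 on the 5mC arrays, the second over the 7 that have a z-score there, against 41.5 and 45 on the unmodified arrays. For the 8 with TGCGTCA, the other strand of the site, it was 15765.5 and 16749.5 with 5mC, against 80.5 and 613.5 without it. None of the first 8 was called (limma, 1 with an unadjusted p under 0.05, lower). Of the second 8, 3 fell, beside 0.647% of all 8-mers. The median change was -0.63 for TGACGCA and -1.55 for TGCGTCA.

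The chimera tgaCgCaa had a z-score of 10.0 on 5mC array 1, where it ranked 4, against 17.6 and 5.32 on the unmodified arrays, where it ranked 54 and 51. Its z-score on 5mC array 2 is null in the deposited table. Its raw signal was 2.63 and 2.53 times the array median with 5mC, against 2.64 and 1.42 times without it (log2 difference 0.26 ± 0.797, adjusted p = 0.895). Above the array median it read 13057 and 11630 units on the 5mC arrays, against 3224 and 299 units on the unmodified arrays, a measure that also follows the brightness of the array.

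Within an array, TGACGCA minus TGACTCA was 0.94 and 1.12 in log2 signal with 5mC, against -0.94 and -0.37 without it. In this orientation the chimera stood above AP-1 on the 5mC arrays and below it on the unmodified arrays. On the other strand of the same sites, TGCGTCA minus TGAGTCA was -0.49 and -0.06 with 5mC, against -0.98 and -0.18 without it, so the chimera read lower on every array and the groups overlapped. TGACGCA minus TGCGTCA was 0.84 and 0.70, against 0.27 and 0.56. Of the 8 chimera pairs 2 changed, beside 8.00% of all pairs. The pair atgaCgCa minus tgCgtCat was 1.12 and 1.48 with 5mC, against -0.52 and -0.05 without it (change 1.59 ± 0.368, limma adjusted p = 0.00595). The other was CtgCgtCa minus tgaCgCag, with -1.58 and -1.97, against -0.14 and -0.01 (change -1.70 ± 0.392, adjusted p = 0.00573).

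**Figure D3:**
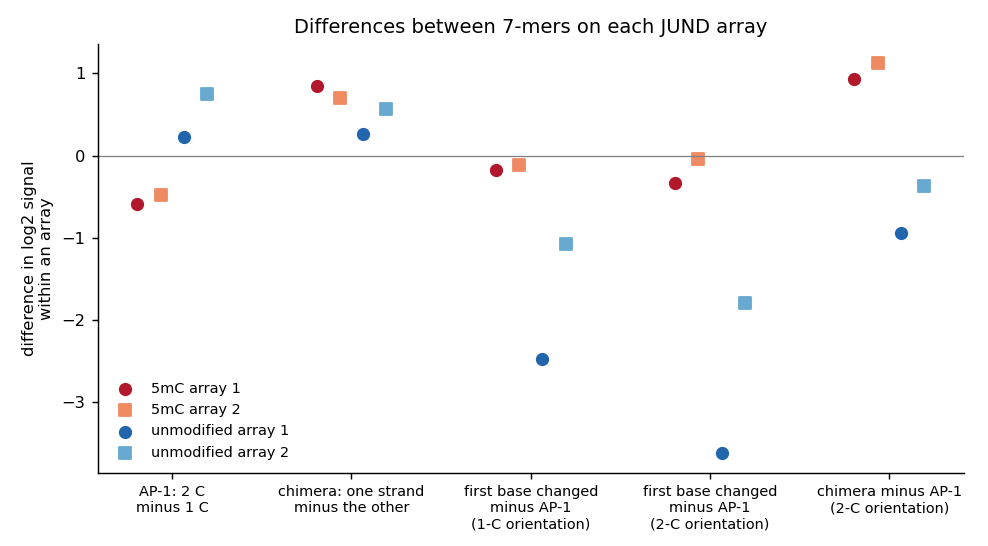
Differences in log2 signal between 7-mers of the same array, 1 point per array, for the 2 JUND 5mC arrays (red and orange) and the 2 JUND unmodified arrays (dark and light blue). The AP-1 difference of the 2-C minus the 1-C orientation is -0.59 and -0.49 with 5mC, against 0.23 and 0.75 without it, and the chimera minus AP-1 is 0.94 and 1.12, against -0.94 and -0.37.

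The CRE was read from the core GACGTC and from its half-sites. Counts of calls here are read beside the 0.990% of all 8-mers that rose and the 0.647% that fell. The 48 8-mers with the core had a median rank of 33564.5 and 42135 on the 5mC arrays, against 25549.5 and 33149.5 on the unmodified arrays, and none was called (limma, 2 with an unadjusted p under 0.05 for a rise and 10 for a fall). Its highest member, the palindrome tgaCgtCa, had z-scores of 3.22 and 1.66 on the 5mC arrays, against 69.1 and 13.9 on the unmodified arrays, where it ranked 6 and 8. Its log2 difference of -2.93 ± 0.818 missed the threshold (limma adjusted p = 0.0529). The 40 8-mers with TGACGT outside the palindrome core had a median z-score of 2.05 and 1.52 with 5mC, against 6.64 and 1.85 without it, and 1 fell. The 40 with ACGTCA had 0.447 and 0.908, against 4.84 and 1.68, and 4 fell. For comparison, the E-box CACGTG of basic helix-loop-helix proteins had a median of 0.911 and 0.420 with 5mC, against 1.42 and 0.769 without it. Of its 48 8-mers 1 fell. It is not an unbound site in this series, as CREB1 had a median of 6.03 and 8.58 there on unmodified DNA.

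Other 8-mers held the top of the 5mC arrays. Among 8-mers with a z-score on both, the 5 highest means were at CCCagaat, aataaaCC, gCaaCaCa, aaaagaag and CgaCaCaC, none with TGAC or GTCA. The chimera tgaCgCaa and CaCCaCta have a null z-score on 5mC array 2, and had 10.0 and 9.58 on 5mC array 1. Their mean log2 signal with 5mC was 2.35 and 2.47, beside 2.35 for CCCagaat. CCCagaat had z-scores of 5.73 and 13.7 on the 5mC arrays, against 1.85 and 2.51 on the unmodified arrays, and raw signals of 1.98 and 3.68 times the median, against 1.40 and 1.19 times. The highest z-score of an array was 10.1 and 13.7 with 5mC, against 106 and 34.5 without it. In z-score no 8-mer of the 5mC arrays was as high as tgagtCat on the unmodified arrays, while in raw signal CCCagaat on 5mC array 2 was above tgagtCat on unmodified array 2. They shared 27 of their top 100, the unmodified arrays shared 47 of theirs, and 1 8-mer was in all 4 top lists.

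Of the 5 largest rises in log2 signal, 3 held the C/EBP half-site GCAA. The first was CtaCgCaa, with z-scores of 7.96 and 6.22 on the 5mC arrays, against 0.766 and 0.434 on the unmodified arrays. Its raw signal was 2.36 and 2.05 times the median with 5mC, against 1.09 and 1.00 times without it, and its log2 signal rose by 1.80 (SE 0.362, limma adjusted p = 0.0128). It ranked 12 and 64 with 5mC, against 15489 and 21745 without it.

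The second, aataaaCC, read 2.35 and 2.74 times the median with 5mC, against 1.13 and 1.15 times without it (log2 change 1.79 ± 0.426, adjusted p = 0.0270). The third, gCaaCCtg, was called in the z-scores too, with 1.73 and 1.55 on the 5mC arrays, against -1.76 and -1.96 on the unmodified arrays (adjusted p = 0.0315). Its place on unmodified DNA was near the bottom, at ranks 63638 and 63800. The other 8-mer called in the z-scores was taCtgCta, with 1.05 and 0.680, against -1.76 and -2.93 (adjusted p = 0.0315). The last 2, CgCaaCaC and CggCgaaC, rose by 1.77 and 1.75 in log2 signal (SE 0.315 and 0.298).

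The C/EBP half-site after C is given by the strand that holds GCAA, beside the 0.990% of all 8-mers that rose and the 0.647% that fell. Of 246 8-mers with CGCAA outside the chimera and the C/EBP palindrome, 31 rose and none fell (limma, 2 with an unadjusted p under 0.05 for a fall). Their median change was 0.56, and in 170 both 5mC arrays lay above both unmodified arrays, beside 24.4% of all 8-mers. Their median rank was 6119 and 8318 with 5mC, against 23584 and 21745 without it. With TTGCG on the modified strand, the same site turned over, 1 of 246 rose and 2 fell, with a median change of -0.13. For TGCAA, which has no CpG, 5 of 256 rose and none fell (6 with an unadjusted p under 0.05 for a fall), with a median change of 0.27. The count of CGCAA 8-mers was also 0 with the raw signal and with the floor of 50.

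**Figure D4:**
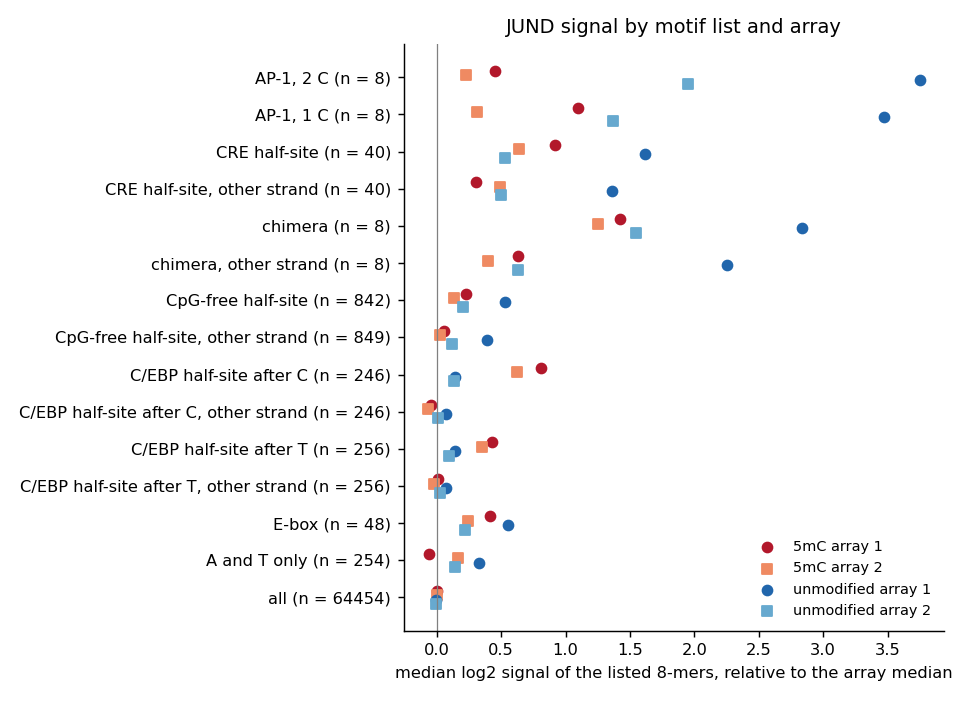
Median log2 signal relative to the array median (horizontal axis) of the 8-mers in each motif list, 1 point per array, for the 2 JUND 5mC arrays (red and orange) and the 2 JUND unmodified arrays (dark and light blue), with the number of 8-mers. The AP-1 lists lie at 0.23 to 1.10 with 5mC, against 1.37 to 3.75 without it, and the C/EBP half-site after C lies at 0.81 and 0.62, against 0.14 and 0.13.

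Base composition of the modified strand went with the change. The 638 8-mers that rose held on average 2.85 C, 2.56 A, 1.58 G and 1.01 T, and the 417 that fell held 1.31 C, 1.82 A, 2.27 G and 2.61 T. TGAC or GTCA was in 0.313% of those that rose and in 26.1% of those that fell, beside 3.95% of all. GCAA was in 10.7% of those that rose, beside 1.98% of all. Most falls thus lay outside AP-1 and CRE half-sites, and those 308 8-mers held 1.13 C and 2.64 T on average.

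By number of T, the median log2 signal with no T was 0.35 and 0.24 on the 5mC arrays, against 0.01 and 0.08 on the unmodified arrays. With 5 T it was -0.49 and -0.33, against -0.08 and -0.16. By number of C, it was -0.16 and 0.06 with no C, against 0.12 and 0.16, and 0.09 and -0.06 with 4 C, against -0.20 and -0.16. The trend with T was thus steeper on the 5mC arrays. So was that with A, from -0.36 and -0.45 with no A to 0.38 and 0.51 with 5 A. Without 5mC it went from -0.21 and -0.19 to 0.21 and 0.36. The log2 signal of all 8-mers also spread more widely with 5mC (SD 0.561 and 0.561, against 0.473 and 0.293). The part of this spread in the trends was not tested. The median change with no T was 0.24 for JUND, 0.16 for CREB1 and 0.27 for ATF1, and with 5 T it was -0.29, -0.24 and -0.27.

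**Figure D5:**
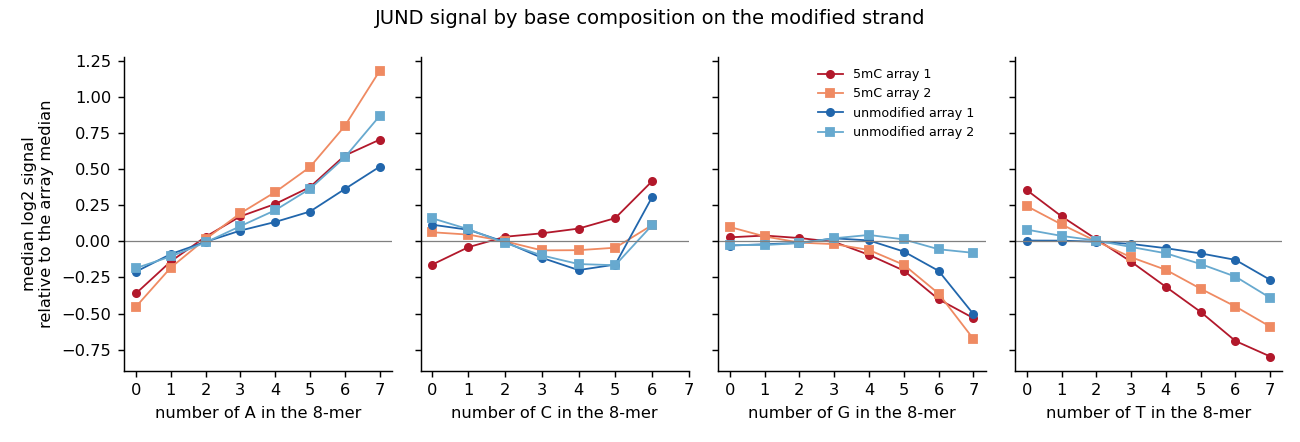
Median log2 signal relative to the array median by the number of A, C, G or T in the 8-mer on the modified strand, for the 2 JUND 5mC arrays (red and orange) and the 2 JUND unmodified arrays (dark and light blue). With no T the medians are 0.35 and 0.24 with 5mC, against 0.01 and 0.08 without it.

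Strand pairs set both strands of a site against each other on the same array. Of 2088 changed pairs with unequal numbers of C, 1668 moved toward the orientation with more C (79.9%), beside 62.3% of all 25270 such pairs. Of 2192 with unequal numbers of A, 1935 moved toward more A (88.3%), beside 66.7% of all. The largest changes were at atCCCaaC over gttgggat (2.48), atCtaCaa over ttgtagat (2.45) and aagaCaCa over tgtgtCtt, the last with 2.84 and 2.83 on the 5mC arrays, against 0.00 and 0.77 on the unmodified arrays. With the opposite sign, which only follows the alphabetical order in a pair, they were at agtttgag (-2.43), attgCgta (-2.33) and agatggCg (-2.17). Each was set against its reverse complement. These pairs too moved toward the orientation with more C, holding 0, 1 and 1 C against 3, 2 and 4 in the reverse complement.

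The JUND 5mC arrays were compared with all other arrays on 3 scales. Over 8-mers, which share probes and base composition and are not replicates, Pearson's r of the z-scores was 0.715 between the JUND 5mC arrays and 0.610 to 0.714 with the ATF1 5mC arrays. It was 0.310 to 0.583 with the CREB1 5mC arrays and 0.316 to 0.508 with the JUND unmodified arrays, which had 0.584 with each other. Spearman's rho was 0.682 between the JUND 5mC arrays, and JUND 5mC array 1 had 0.755 and 0.710 with the ATF1 5mC arrays and 0.706 with CREB1 5mC array 2. In log2 signal Pearson's r was 0.699 between the JUND 5mC arrays, against 0.757, 0.713 and 0.703. On these scales JUND 5mC array 1 was closer to those arrays than to its replicate. CREB1 and ATF1 are bZIP proteins of the CRE. Of the 638 8-mers that rose for JUND, 87.5% had a positive change for CREB1 and 96.7% for ATF1, beside 46.7% and 49.4% of all 8-mers.

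AP-1 8-mers had these median z-scores for the 3 proteins. The median of the 16 AP-1 8-mers was 1.52 and 0.614 for JUND with 5mC, against 37.8 and 7.59 without it. For CREB1 it was 2.19 and 0.963, against 2.76 and 5.22, and for ATF1 1.31 and 0.802, against 3.30 and 1.99. Single AP-1 8-mers were higher for CREB1, such as tgagtCat with 3.77 and 0.621 with 5mC, against 8.05 and 10.9 without it. The change differed between JUND and CREB1 in 2340 of 64454 8-mers (3.63%), 1859 of them with the larger value for JUND (2.88%) and 481 with the smaller (0.746%), and between JUND and ATF1 in 11 (0.0171%). Among AP-1 8-mers of the named set, tgaCtCaC differed from CREB1 (-32.9 ± 9.18, limma adjusted p = 0.0474). At the CRE half-site 8-mer gatgaCgt z-scores were 3.35 and 2.95 for JUND with 5mC, against 26.8 and 11.5 without it, and 26.1 and 11.9 for CREB1, against 137 and 124. These changes differed by 95.7 ± 7.48 (adjusted p = 1.18e-07). At CtaCgCaa CREB1 had 128 and 60.1 with 5mC, against 14.7 and 25.9 without it, and the difference from JUND of -67.5 ± 20.6 missed the threshold (adjusted p = 0.0749).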

How the data were processed

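Per the file headers, the authors gave each probe a median signal and a local background, both linear intensity values. A second deposited table holds z-scores of 65530 8-mers on each array, a score whose formula no source used here states. This score ranked with the median signal of the probes that hold the 8-mer on their synthesized strand (rho 0.957 to 0.970), so that strand is used, and 8-mers on fewer than 10 probes were left out. A median of 17 probes held each. On JUND 5mC array 2, 3 z-scores are null, and those 8-mers were fitted without that array.

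Intensities were corrected with normexp (offset 50), put on the log2 scale, summarised per 8-mer or 7-mer as the median over probes and centred on the array's probe median. Changes are JUND 5mC minus JUND unmodified, from limma 3.58.1 (R 4.3.3) with eBayes and a trend on the mean. Tests were two-sided, with Benjamini-Hochberg correction across the whole table and a threshold of 0.05. The fits used 4 arrays, and interactions the 12 arrays of the 3 proteins on 5mC and unmodified DNA. Tables were made with Python 3.11.15, numpy 2.4.6 and pandas 2.3.3, and plots with matplotlib 3.10.9. The fits were tested on simulated data with the same spread in both groups, which does not cover groups of unequal spread.

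The members, motif lists and tests were chosen with earlier results of these data known. The 8-mers named are up to 5 rises and 5 falls per scale among calls without overlap between groups, the 5 highest mean z-scores per group, the highest mean z-score of each list, 4 chosen sites, and the 3 largest strand changes each way, and the scan covers all 1-base changes of the AP-1 heptamer. Other AP-1 and chimera 8-mers were named after their values were seen. Alternatives changed the normalization, background, trend, arrays fitted and probe minimum.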

Additional observations from a re-analysis of the deposited data

Results flagged for a closer look

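The effect of 5mC differed between proteins in limma's interaction test, for 2340 8-mers between JUND and CREB1 and for 11 between JUND and ATF1. Of the 8-mers named by the fixed rule 8 differed from CREB1, each value being the change of JUND minus that of CREB1 in z-score. They were tgaCgtCa (102.8), gatgaCgt (95.7), ttaCgtCa (80.3), tgaCtCaC (-32.9), ttgCgCaa (-21.6), CgCaaCaC (-19.8), aataaaCC (5.54) and aaaagaag (5.34). The chimera 8-mer CtgCgtCa, named after its values were seen, differed too (41.2, adjusted p = 0.00800). For gatgaCgt the change also differed from that of ATF1, by 49.1. At the CRE palindrome tgaCgtCa, JUND had z-scores of 3.22 and 1.66 with 5mC, against 69.1 and 13.9 without it, and CREB1 had 33.7 and 12.0, against 193 and 136. At the C/EBP palindrome ttgCgCaa, JUND had 3.77 and 3.99 with 5mC, against 1.99 and 3.10 without it, and CREB1 had 32.0 and 23.3, against 3.73 and 5.81. The z-scores of CREB1 reach higher than those of JUND at these sites, and the part of that scale in the difference was not tested.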

How the results depend on the processing

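Counts moved with the settings, while the direction of a call was fixed in advance in many of them. The replicate block, the fit without the trend and the fits with added arrays leave the estimate as it is. Leaving out 1 array cannot turn a call whose groups did not overlap. That no call reversed is thus no test of direction in those settings. Of 33 single calls none reversed in 400 recomputations, 303 stayed past the threshold and 97 did not, and 6 calls passed in all. In log2 signal 1055 8-mers were called, but 0 without background correction or with the floor of 50, so also 0 of the AP-1 (8) and CGCAA (31) 8-mers. Without background correction 1080 7-mers were called, and 299 with the floor, but each setting kept only 2 of the 10 called in the scan. Quantile normalization gave 497 pairs and 336 7-mers, and split its 782 8-mers into 395 higher and 387 lower. In z-scores 2 were called, 0 without the trend, with 6 JUND arrays or with 15 or more probes, 780 with 18 arrays and 585 with the normal score of the rank. With 18 arrays 3607 8-mers, 13 AP-1, 65 CGCAA and 1662 7-mers were called in log2 signal, and with 6 JUND arrays 669 8-mers and 406 7-mers. Leaving out 1 array at a time, with the lone array assumed to vary like the pair, gave 133 to 2332 8-mers in z-score, 213 to 3643 in log2 signal, 0 to 16 AP-1, 17 to 50 CGCAA, 204 to 3422 pairs and 64 to 1578 7-mers. The lowest counts came without unmodified array 1 for log2 8-mers, CGCAA, pairs and 7-mers, and without 5mC array 1 for z-scores. Same-numbered arrays share only a number, their deviations correlating at 0.133 (z-score) and 0.125 (log2 signal). The replicate block gave 3150 8-mers in z-score, 4322 in log2 signal, 15 AP-1, 76 CGCAA, 3808 pairs and 1775 7-mers. The difference from CREB1 was called for 148 8-mers by rank and 1218 in log2 signal, and that from ATF1 for 141 in log2 signal. A z-score of 3 or more held for 1575 and 1538 8-mers with 5mC, against 1701 and 559 without it, of 4 or more for 530 and 558, against 864 and 137, and of 6 or more for 79 and 76, against 382 and 39. The 5mC arrays shared 7 of their top 50 and 72 of their top 200, and the unmodified arrays 28 and 76. The AP-1, CGCAA and within-array alternatives were added after seeing the data. The cause of these shifts was not tested, and signal over background was lowest on unmodified array 1.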
